A study of Sus scrofa with 32 samples.

Results

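Adipose tissue of pigs with high and with low fat deposition was compared across all genes that could be counted. The libraries were the 16 labelled as fat among the 32 of the series, 8 from pigs with high fat deposition (HFD) and 8 from pigs with low fat deposition (LFD), and the other 16 were liver. All animals were Złotnicka White (ZW) females of 180 days that had the same feeding and housing, and the groups differed in the fat content that their labels give. That label is filed under shear force, the name of a different trait. The paper describes liver libraries and does not mention fat ones. Its facts on farms, daily gain and genotype are therefore those of the pigs whose liver was sequenced. By the paper, the pigs came from different farms. HFD pigs also gained less weight per day than LFD pigs, and FGL1 genotypes were distributed differently between the groups. The descriptions name neither the depot the fat was taken from nor whether liver and fat libraries of 1 number came from 1 pig. The paper's methods name 16 pigs, 8 per group, for RNA-seq. Each fat library was taken to come from a different pig, which the methods do not state. On that reading the p-values below measure the spread between pigs.

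Adipocytes hold triglyceride in a lipid droplet, which they fill by making fatty acids from glucose and by taking them up from lipoproteins, and empty by lipolysis. Insulin favours the filling and catecholamines the emptying. Adipose tissue also secretes adipokines such as leptin, whose amount usually follows the size of the fat store, and it holds endothelial cells, fibroblasts and immune cells beside the adipocytes. In whole tissue, fewer cells of a type and less RNA per cell cannot be told apart. The tissue label was checked against adipocyte markers, and ADIPOQ, the adipocyte hormone adiponectin, stood at 3439 to 5988 CPM in HFD and at 3767 to 6654 in LFD. CPM stands for normalized counts, that is counts brought to a common library size with TMM, a trimmed mean of ratios between libraries, and it is compared here only for the same gene between libraries.

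HFD replicate 2 stood apart from the other 15 libraries, and fold changes are given with it and, as the second value, without it. Its 10 most counted genes held 80.9% of its counts, against 42.2% in LFD replicate 4 and 18.7% to 28.3% in the others. It had the lowest total, 9409976 counts, while the others had 13013271 to 19484621. Spearman correlations with the rest averaged 0.846 for it and 0.933 to 0.967 for the others. The mitochondrially encoded genes made up 0.650% of its counts and 8.15% to 15.1% elsewhere. Its leading gene, an identifier with no symbol, took 45.2% of its counts and 4.54% to 10.4% of the others. Summed over the hepatocyte markers, it held 1778 CPM, against 171 to 491 in the other HFD and 172 to 310 in the LFD libraries. The sum of the skeletal muscle markers was 26.3 there and 2.50 to 5.77 elsewhere.

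**Figure D1:**
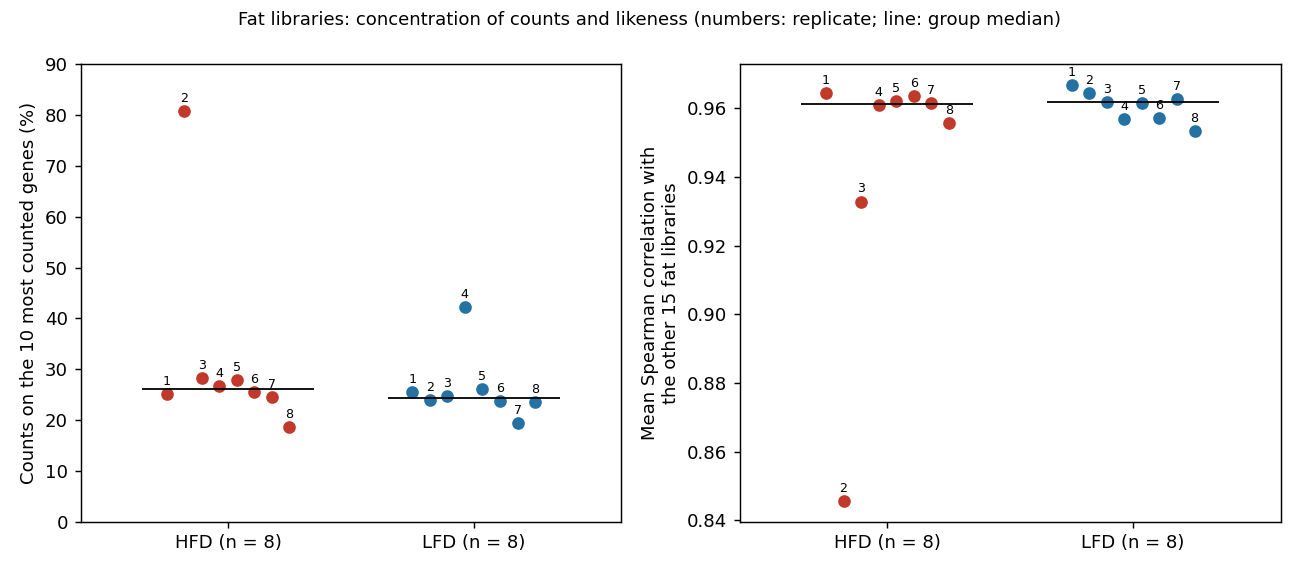
Share of counts on the 10 most counted genes (left, %) and Spearman correlation with the remaining 15 fat libraries, averaged, (right) for each of 8 HFD and 8 LFD libraries, with replicate numbers beside the points and lines at group medians. HFD replicate 2 stands at 80.9% and 0.846, LFD replicate 4 at 42.2% and 0.957, and HFD replicate 3 has the next lowest correlation, 0.933.

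No gene passed the test between HFD and LFD fat when all 16 libraries were used, and RAP1GAP alone passed it without HFD replicate 2. Of 13082 genes tested with edgeR's quasi-likelihood test, 0 (0% of those tested) had a Benjamini-Hochberg adjusted p under 0.05 and the lowest adjusted p was 0.0812. At an unadjusted p under 0.05 there were 870 genes, or 6.65% of those tested, 513 with higher values in HFD (3.92%) and 357 with lower values (2.73%). Scaling by total counts in place of TMM turned that split to 95 higher and 262 lower and the median over all genes to -0.10 on the log2 scale, while the other scalings kept it near 0. Over all genes the log2 fold changes had a median of 0.02, and their standard errors one of 0.19. Without HFD replicate 2, 1 of 13207 genes was called, or 0.00757%, and 1056 genes (8.00%) had an unadjusted p under 0.05, 557 higher (4.22%) and 499 lower (3.78%). Other tests on all libraries called from 1 gene with limma-voom to 39 with limma-voom and library weights (0.298%) and 50 with DESeq2 (0.334%). The library weights let a library that departs from the fit count for less, and they were 0.152 for HFD replicate 2, 0.256 for HFD replicate 3 and 0.640 to 2.17 for the others.

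RAP1GAP, which switches off the small GTPase Rap1, was the gene with the smallest p. It lies at chr6:79664486-79735361 of Sscrofa11.1 and was read at 1.00, 4.91 and 7.21 CPM (lowest, median and highest) in HFD and at 0.61, 1.08 and 2.52 in LFD. The lowest HFD value was that of replicate 2, and the other 7 HFD libraries, from 4.38 up, lay above all 8 LFD libraries. The log2 fold change was 2.08 (SE 0.33, edgeR adjusted p = 0.0812) with all libraries and 2.19 (SE 0.28, edgeR adjusted p = 0.00526) without replicate 2, where RAP1GAP rose in HFD. With a term for replicate number added to the fit without replicate 2, RAP1GAP was not called. An exact two-sided permutation test of its mean log2 level gave p = 0.000777 over 16 libraries and p = 0.000311 over 15, unadjusted for its choice among all genes. Its LFD values, at 0.61 to 2.52 CPM, and the 1.00 of HFD replicate 2, the library with the lowest total, rest on few counts each.

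The genes with the next smallest p and higher values in HFD held a secreted protease inhibitor, a prostanoid receptor and enzymes of amino acid, glutathione and acyl metabolism. They were picked for a small p in this same comparison. Counts of libraries beyond the other group or its median therefore follow in part from that choice. The same holds for the lower genes and for list members named for a small p. A2M, the secreted inhibitor alpha-2-macroglobulin (chr5:62406928-62483690), ranged over 9.60, 15.6 and 46.99 CPM (lowest, median, highest) in HFD and 2.62, 3.77 and 11.2 in LFD. The highest value was that of HFD replicate 2, and 7 of 8 HFD libraries exceeded every LFD library. Its log2 fold change was 1.91 (SE 0.35, edgeR adjusted p = 0.197) and 1.62 without replicate 2 (SE 0.29, edgeR adjusted p = 0.124).

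TBXA2R, the receptor for thromboxane A2 (chr2:75068413-75081305), ranged over 14.3, 20.7 and 30.3 CPM in HFD and 7.26, 8.67 and 22.6 in LFD. Only LFD replicate 3, with the 22.6, lay inside the HFD range. The log2 fold change was 1.03 (SE 0.24, edgeR adjusted p = 0.298), and without LFD replicate 3 it was 1.28 (SE 0.18, edgeR adjusted p = 0.0172), at which TBXA2R passed the test. MFSD12, a lysosomal cysteine transporter that lies on the same chromosome at chr2:75098531-75120795, had a log2 fold change of 0.75 (SE 0.19, edgeR adjusted p = 0.383). Without HFD replicate 2 the log2 fold changes were 1.06 for TBXA2R (SE 0.24) and 0.71 for MFSD12 (SE 0.20).

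SDSL, a serine dehydratase-like enzyme, was read at 1.06, 1.73 and 3.68 CPM in HFD and at 0, 0.44 and 1.23 in LFD, and 7 of 8 HFD libraries exceeded every LFD library. ZDHHC2, a protein palmitoyltransferase, was at 7.33, 9.21 and 12.5 in HFD and at 3.81, 5.81 and 7.49 in LFD, and HFD replicate 2 alone lay within the LFD range. The log2 fold changes were 1.92 for SDSL (SE 0.41), 1.94 without replicate 2, and 0.67 for ZDHHC2 (SE 0.16), 0.70 without replicate 2. The other 7 of the 12 were CCDC9B, CPT1C, a carnitine palmitoyltransferase known from brain, WWTR1, the Hippo pathway coactivator TAZ, FBXL2, an F-box protein, GCLM, the modifier subunit of the enzyme that starts glutathione synthesis, MFSD12 and PLEK, the leukocyte and platelet protein pleckstrin. Their log2 fold changes lay between 0.45 for WWTR1 and 1.46 for CPT1C, and the same genes gave 0.45 and 1.46 as the lowest and highest without replicate 2. For all 12, edgeR adjusted p-values were 0.0812 to 0.400 with all libraries, and except for RAP1GAP at 7 of 8, all 8 HFD libraries were above the LFD median. Over all genes that last count was not taken.

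**Figure D2:**
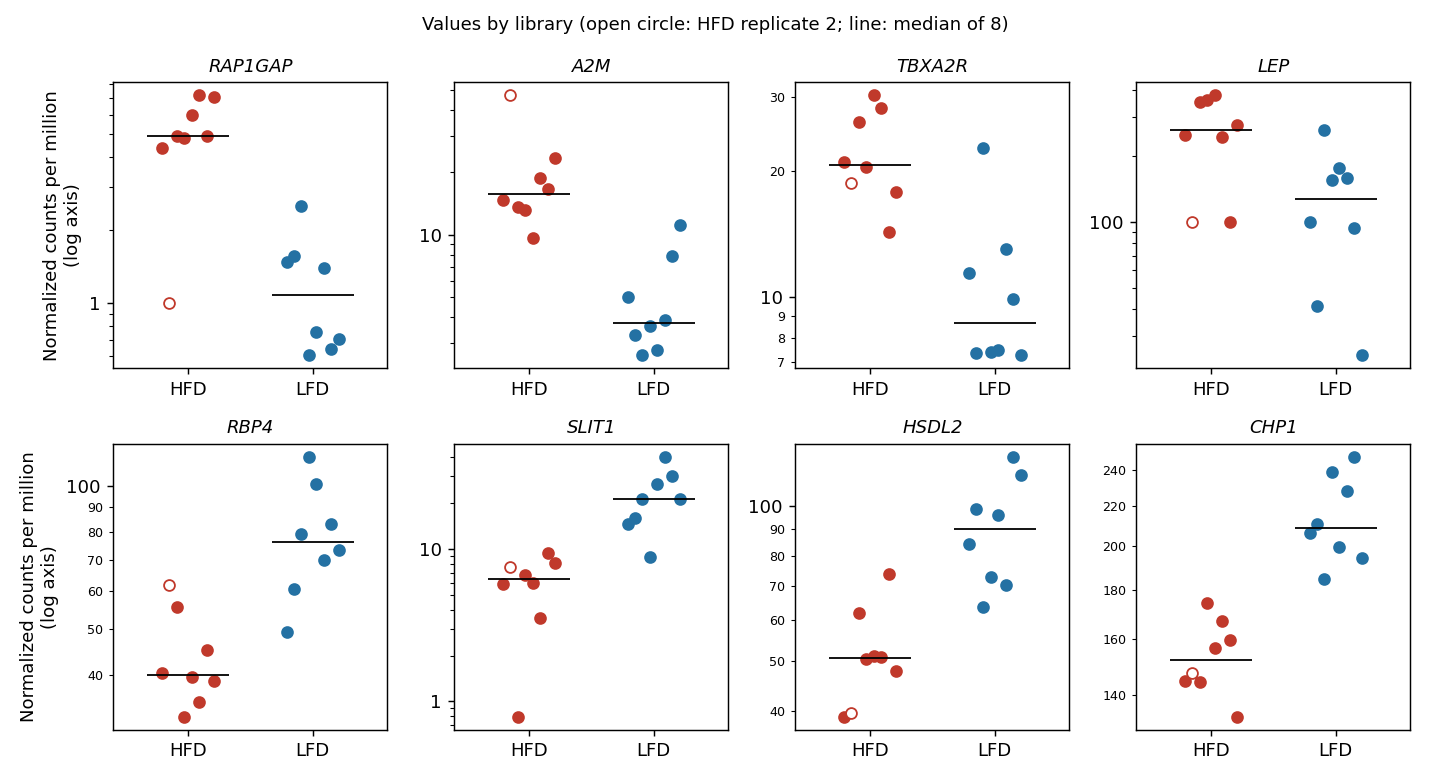
CPM (log axes) of 8 genes in each of 8 HFD (red) and 8 LFD (blue) fat libraries, with HFD replicate 2 as an open circle and lines at the medians of 8. CHP1 has no overlap between the groups, and RAP1GAP has none once HFD replicate 2 is set aside.

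Among the genes with lower values in HFD, CHP1 and RBP4 have known parts in fat. CHP1, a calcium-binding protein that activates an acyltransferase of glycerolipid synthesis (chr1:130073919-130112461), was read at 133, 152 and 174 CPM in HFD and at 185, 209 and 248 in LFD. All 8 HFD libraries lay below all 8 LFD libraries, which held for 2 of the 13082 genes in this direction (0.0153%). The log2 fold change was -0.48 (SE 0.10, edgeR adjusted p = 0.292) and stayed at -0.48 without HFD replicate 2 (SE 0.09, edgeR adjusted p = 0.131). The other gene without overlap in that direction was SSRP1, a chromatin factor, and 2 genes had none with higher values in HFD (0.0153%), the lysosomal cathepsin A gene CTSA and an identifier with no symbol. These 3 were named after their values were seen. With 7 HFD libraries, 7 genes in each direction had no overlap (0.0530%).

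RBP4, which carries retinol in plasma and is secreted by adipocytes as well as by liver (chr14:105037360-105044552), was at 32.8, 40.1 and 62.0 CPM in HFD and at 49.4, 76.3 and 115 in LFD. HFD replicates 2 and 3 were the 2 that reached into the LFD range. Its log2 fold change was -0.86 (SE 0.17, edgeR adjusted p = 0.255) and -0.94 without replicate 2 (SE 0.16, edgeR adjusted p = 0.122). SLIT1, a secreted axon guidance protein (chr14:108446003-108624508), was at 0.79, 6.35 and 9.46 in HFD and at 8.90, 21.3 and 40.3 in LFD, with a log2 fold change of -1.91 (SE 0.36, edgeR adjusted p = 0.197) and -1.94 without replicate 2 (SE 0.37). HSDL2, a peroxisomal dehydrogenase-like protein (chr1:253124358-253191309), was at 39.03, 50.8 and 73.7 in HFD and at 63.6, 90.2 and 124 in LFD, with a log2 fold change of -0.80 (SE 0.16, edgeR adjusted p = 0.255) and -0.76 without replicate 2 (SE 0.16). For SLIT1 and HSDL2, 7 of 8 HFD libraries lay below all LFD libraries.

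The other 8 of the 12 lower genes were SAL1, a salivary lipocalin, CLSTN3, a calsyntenin, MME, the peptidase neprilysin, TCEA3, an elongation factor, FKBP10, a collagen-folding isomerase, MAPK8IP1, a scaffold of JNK signalling, CNTN1, a neural adhesion protein, and AMDHD1, an enzyme of histidine breakdown. Their log2 fold changes ran from -0.71 for MAPK8IP1 and CLSTN3 to -2.89 for SAL1, and without replicate 2 from -0.67 for MAPK8IP1 to -2.76 for SAL1. SAL1 was at 2.67, 12.0 and 19.6 CPM in HFD and at 14.7, 35.3 and 381 in LFD, and the 381 was that of LFD replicate 4. CLSTN3 was at 31.1, 51.9 and 71.3 in HFD and at 65.3, 80.2 and 106 in LFD, and HFD replicate 2 alone lay within the LFD range. All 8 HFD libraries were below the LFD median for each of the 12, and edgeR adjusted p-values were 0.197 to 0.298. These 12 were picked for their small p, so the first of these follows in part from the choice, and it was not counted over all genes.

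DESeq2 and limma-voom with library weights, each with and without HFD replicate 2, called 12 genes in all 4 fits and 102 in at least 1. The 5 with higher values in HFD were A2M, ZDHHC2, RAP1GAP, CCDC9B and TBXA2R. The 7 with lower values were CLSTN3, CHP1, HSDL2, RBP4, SLIT1, SLC22A3, an organic cation transporter, and INTS2, a subunit of the Integrator complex. SLC22A3 and INTS2 were named for these calls. SLC22A3 was at 4.88, 7.37 and 10.3 CPM in HFD and at 8.71, 12.8 and 17.8 in LFD, a log2 fold change of -0.83 (SE 0.20, edgeR adjusted p = 0.298) and -0.89 without replicate 2. INTS2 had a log2 fold change of -0.47 (SE 0.13, edgeR adjusted p = 0.396) and -0.54 without it.

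The genes of fatty acid synthesis and the other lipid pathways had no member that passed the test, and those of fatty acid synthesis spread widely within each group. For 364 symbols on gene lists, 318 had an identifier in the table and 284 were tested. FASN, the fatty acid synthase, ranged over 10623, 31534 and 53024 CPM in HFD and 5043, 22295 and 34420 in LFD. SCD, the stearoyl-CoA desaturase, ranged over 9600, 27486 and 41224 in HFD and 2450, 25055 and 38353 in LFD. The groups overlapped over most of their range for both, with log2 fold changes of 0.52 for FASN (SE 0.40, edgeR adjusted p = 0.898) and 0.25 for SCD (SE 0.43, edgeR adjusted p = 0.954). ACACA, which makes malonyl-CoA, had a log2 fold change of 0.48 (SE 0.42, edgeR adjusted p = 0.904). Without HFD replicate 2 the values were 0.36 for FASN (SE 0.38), 0.33 for SCD (SE 0.42) and 0.32 for ACACA (SE 0.42).

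Of the 18 tested members of fatty acid synthesis, 14 had a log2 fold change above 0, against 53.5% of all genes and 52.1% of all genes without HFD replicate 2. Their median log2 fold change was 0.23 with all libraries and 0.30 without HFD replicate 2, and 0 of 18 had an unadjusted p under 0.05. The median within-group SD of these genes, taken without HFD replicate 2, was 0.85 on the log2 scale, against 0.30 over all genes tested. Other lists came near it, with 0.79 for the immediate early and heat shock genes and 0.76 for the hepatocyte markers. Their summed CPM were 27097, 78904 and 113983 in HFD and 11495, 65092 and 94737 in LFD, and the lowest libraries were LFD replicate 8, HFD replicate 7 and LFD replicate 7.

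**Figure D3:**
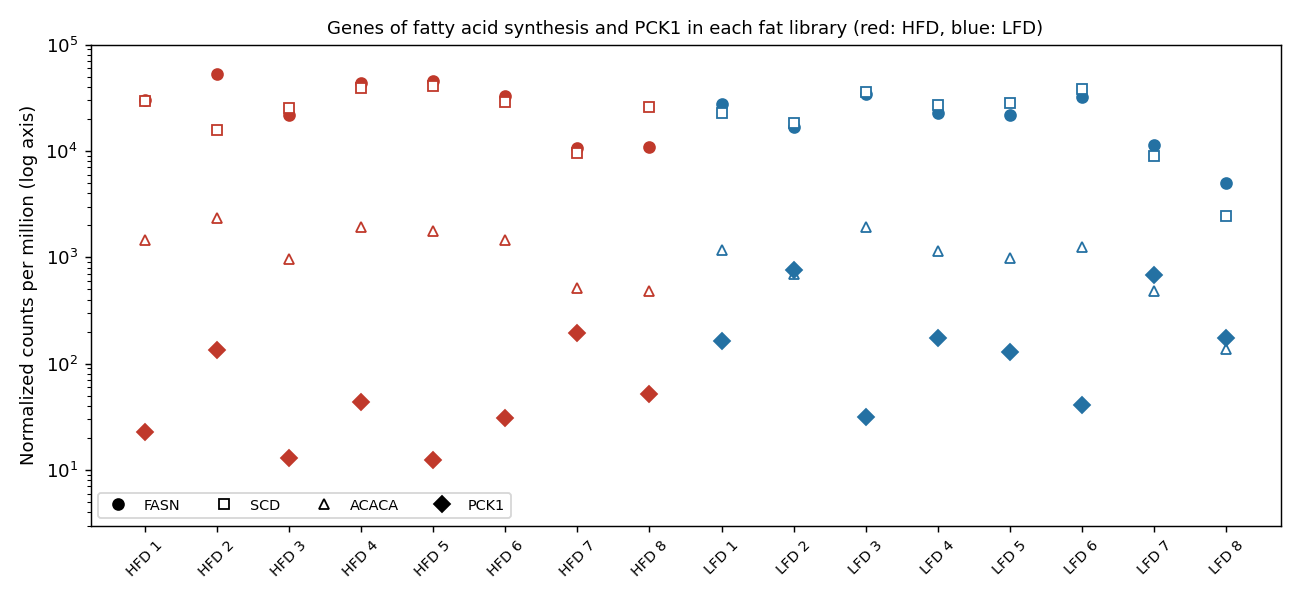
CPM (log axis) of FASN, SCD, ACACA and PCK1 in each fat library, HFD in red and LFD in blue, with the replicate number on the horizontal axis. FASN spans 10623 to 53024 in HFD and 5043 to 34420 in LFD, and PCK1 spans 12.5 to 195 in HFD and 31.3 to 760 in LFD.

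In triglyceride assembly and the lipid droplet, the median log2 fold change of 15 tested genes was -0.02. Of the 15, 1 had an unadjusted p under 0.05 with higher values in HFD, beside 3.92% of all genes. It was LPIN2, a phosphatidate phosphatase, at 12.9, 15.4 and 21.0 CPM in HFD and 9.79, 13.2 and 17.0 in LFD (log2 fold change 0.31, SE 0.14, edgeR adjusted p = 0.712, and 0.25 without HFD replicate 2). LPIN2 was not under 0.05 without HFD replicate 2. In that fit MOGAT1 was the 1 of 15 under 0.05, with a lower value in HFD, beside 3.78% of all genes. Its log2 fold change there was -0.55 (SE 0.22, edgeR adjusted p = 0.508). DGAT2, which adds the last acyl chain of triglyceride, ranged from 1242 to 2890 in HFD and from 720 to 3238 in LFD. The groups of DGAT2 overlapped throughout, with a log2 fold change of 0.05 (SE 0.28) and 0.10 without that library (SE 0.28).

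In lipolysis, 2 of 10 tested genes had an unadjusted p under 0.05, both with lower values in HFD, beside 2.73% of all genes, and 4 did without HFD replicate 2, beside 3.78%. None passed the adjusted test. ABHD5, the coactivator of adipose triglyceride lipase, was at 53.1, 62.1 and 101 CPM in HFD and at 45.2, 99.7 and 158 in LFD (log2 fold change -0.53, SE 0.21, edgeR adjusted p = 0.643, and -0.52 without replicate 2). PRKAR2B, a regulatory subunit of protein kinase A, was at 159, 206 and 304 in HFD and at 176, 314 and 436 in LFD (log2 fold change -0.49, SE 0.20, edgeR adjusted p = 0.653, and -0.55 without replicate 2). The 2 added without replicate 2 were the beta-1 adrenergic receptor ADRB1 (log2 fold change -0.65, SE 0.22, edgeR adjusted p = 0.425) and the natriuretic peptide receptor NPR1 (log2 fold change -0.24, SE 0.11, edgeR adjusted p = 0.590). Of the lipases, PNPLA2, adipose triglyceride lipase, had a log2 fold change of -0.18 (SE 0.14) and -0.24 without replicate 2 (SE 0.12), with 5 of 8 HFD libraries below all LFD libraries. LIPE, hormone-sensitive lipase, had 0.05 (SE 0.18) and -0.06 without replicate 2 (SE 0.15). MGLL, the lipase of monoglycerides, had 0.36 (SE 0.22) and 0.31 without replicate 2 (SE 0.21).

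In fatty acid oxidation, 2 of 14 tested genes had a log2 fold change above 0, beside 53.5% of all genes, with a median of -0.09 and -0.08 without HFD replicate 2. With all libraries 1 of the 14 had an unadjusted p under 0.05, a share near that of all genes. It was HADHA, a subunit of the mitochondrial trifunctional protein, at 125, 167 and 234 CPM in HFD and at 191, 213 and 236 in LFD. The HFD libraries other than 1 lay below all LFD libraries, and the log2 fold change was -0.34 (SE 0.12, edgeR adjusted p = 0.599) and -0.33 without replicate 2 (SE 0.11). Among 11 tested genes of fatty acid uptake and transport, 0 had an unadjusted p under 0.05, and LPL, lipoprotein lipase, had a log2 fold change of 0.16 (SE 0.23, edgeR adjusted p = 0.942) and 0.17 without replicate 2. In 22 genes of cholesterol synthesis the median was -0.04, and HSD17B7, a reductase of that pathway, had a log2 fold change of -0.63 (SE 0.22, edgeR adjusted p = 0.599) and -0.54 without replicate 2.

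LEP, which encodes leptin, was read at 99.3, 262 and 378 CPM in HFD and at 24.6, 127 and 263 in LFD. HFD replicates 2 and 7 were the lowest of their group, at 99.3 and 99.9, and 4 of the 8 HFD libraries exceeded every LFD library. The log2 fold change was 1.03 (SE 0.41, edgeR unadjusted p = 0.0204, adjusted p = 0.637), and 1.15 without replicate 2 (SE 0.40, edgeR adjusted p = 0.436), so LEP did not pass the test. ADIPOQ had a log2 fold change of -0.35 (SE 0.17, edgeR adjusted p = 0.774) and -0.32 without replicate 2 (SE 0.15). Of the 14 adipokines and secreted factors tested, LEP and RBP4 were the 2 with an unadjusted p under 0.05, beside 6.65% of all genes in either direction. The median log2 fold change of the list was -0.04.

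Among 18 tested adipogenic transcription factors and their brakes, 2 had an unadjusted p under 0.05, both with lower values in HFD, beside 2.73% of all genes. None passed the adjusted test with edgeR. STAT5A, which carries growth hormone and prolactin signals, was at 43.01, 54.1 and 78.0 CPM in HFD and at 71.4, 75.3 and 117 in LFD, with 6 of 8 HFD libraries below all LFD libraries. Its log2 fold change was -0.49 (SE 0.14, edgeR adjusted p = 0.492) and -0.56 without replicate 2 (SE 0.13, edgeR adjusted p = 0.222). DESeq2 called STAT5A without replicate 2 (DESeq2 adjusted p = 0.0226) and not with all libraries. CEBPB, an early factor of adipocyte differentiation, had a log2 fold change of -0.35 (SE 0.16) and -0.39 without replicate 2. PPARG, the main regulator of adipocytes, ranged over 85.3, 160 and 204 in HFD and 138, 152 and 221.3 in LFD, and its log2 fold change of -0.05 (SE 0.16) became 0.03 without replicate 2 (SE 0.12). CEBPA, its partner, had a log2 fold change of -0.30 (SE 0.21) and -0.24 without it (SE 0.20).

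Of 15 tested genes of insulin signalling and glucose uptake, 3 had an unadjusted p under 0.05, all with lower values in HFD, beside 2.73% of all genes, while 10 of the 15 had a log2 fold change above 0. None passed the adjusted test with edgeR. GRB14 and GRB10 encode adaptors that bind the insulin receptor and restrain its signal. DESeq2 called GRB14 (DESeq2 adjusted p = 0.0352, and 0.0155 without HFD replicate 2) and did not call GRB10. GRB14 was at 0.17, 0.34 and 1.06 CPM in HFD and at 0.45, 1.51 and 2.97 in LFD (log2 fold change -1.81, SE 0.45, edgeR adjusted p = 0.365, and -1.89 without HFD replicate 2). GRB10 was at 31.1, 49.7 and 69.0 in HFD and at 33.5, 96.7 and 150 in LFD (log2 fold change -0.89, SE 0.26, edgeR adjusted p = 0.492, and -0.90 without it). All 8 HFD libraries lay below the LFD median for both genes, and both groups overlapped.

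PCK1, which makes the glycerol backbone of triglyceride in adipocytes and is repressed by insulin, had among the widest spreads of the genes named. Its within-group SD, taken without HFD replicate 2, was 1.5 on the log2 scale. It was at 12.5, 37.4 and 195 CPM in HFD and at 31.3, 169 and 760 in LFD. The log2 fold change was -2.10 (SE 0.70, edgeR adjusted p = 0.542) and -2.35 without replicate 2 (SE 0.75), and the highest HFD libraries were replicates 7 and 2. Without HFD replicate 2, IRS1, the insulin receptor substrate, joined the 3 at an unadjusted p under 0.05 with a log2 fold change of -0.51 (SE 0.19, edgeR adjusted p = 0.475), and the median of the list went from 0.14 to -0.04, and to -0.07 with total count scaling of all libraries.

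In the fit without HFD replicate 2, 8 of 26 tested extracellular matrix genes had an unadjusted p under 0.05, all with lower values in HFD, where 3.78% of all genes did. None of the 26 passed the adjusted test with edgeR in either fit. With all libraries there were 3 of 26, beside 2.73% of all genes, and the list's median log2 fold change was -0.14 with all libraries and -0.25 without replicate 2. MMP2, a gelatinase, was at 182, 383 and 583 CPM in HFD and at 372, 636 and 862 in LFD (log2 fold change -0.65, SE 0.24, edgeR adjusted p = 0.634, and -0.76 without replicate 2). COL6A2, a chain of collagen VI, was at 143, 220 and 434 in HFD and at 197, 368 and 435 in LFD, and the 434 was that of replicate 2. Its log2 fold change was -0.53 with all libraries and -0.70 without replicate 2 (SE 0.18, edgeR adjusted p = 0.245). DESeq2 called COL6A2 without replicate 2 (DESeq2 adjusted p = 0.0244) and not with all libraries. POSTN, the matricellular protein periostin, had a log2 fold change of -0.69 (SE 0.27) and -0.67 without replicate 2 (SE 0.28).

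The other 5 that came under 0.05 without replicate 2 were COL1A1, COL1A2, COL3A1, COL6A1 and COL6A3, with log2 fold changes of -0.38 for COL3A1 to -0.64 for COL6A1. Other members had values near or above 0: COL4A1 and COL4A2, chains of basement membrane collagen, had -0.0034 and -0.04 in that fit, and the protease inhibitor TIMP1 had 0.37 (SE 0.23). COL1A1, a chain of collagen I, stood at 11543 in HFD replicate 2 and at 1830 to 3453 in the other HFD libraries, against 2399 to 5016 in LFD. Its log2 fold change was therefore -0.05 with all libraries (SE 0.35) and -0.57 without replicate 2 (SE 0.20, edgeR adjusted p = 0.464). The summed level of the 26 genes was 51169 in that library, 25020 to 31891 in the other HFD and 28652 to 42209 in the LFD libraries. The markers of preadipocytes and fibroblasts, which share collagen genes with this list, had a median of 0.02 with all libraries, -0.28 with total count scaling and -0.20 without replicate 2. The part of these cells in the collagen values was not tested.

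**Figure D4:**
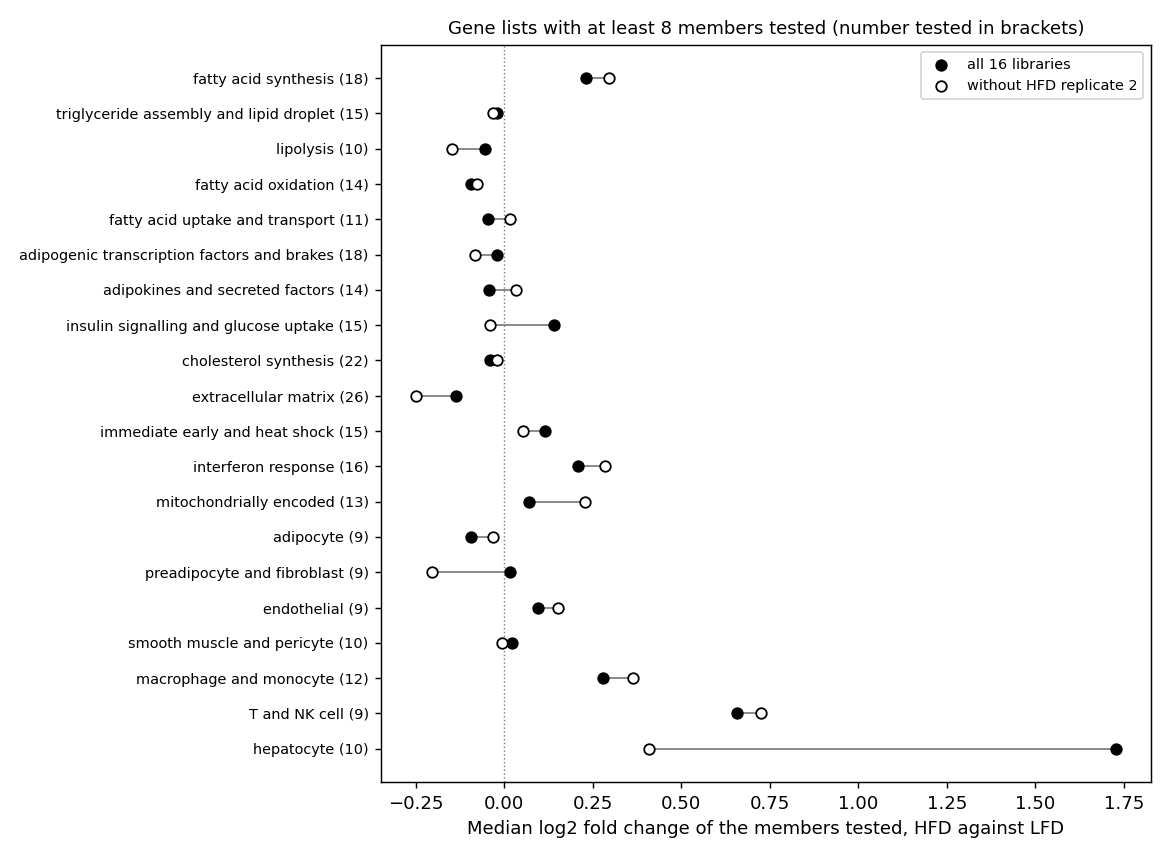
Median log2 fold change, HFD against LFD, of the tested members of each gene list with at least 8 members tested, with all 16 libraries (filled) and without HFD replicate 2 (open), and the number tested in brackets. The T and NK cell markers have medians of 0.66 and 0.73, the extracellular matrix genes -0.14 and -0.25, and the hepatocyte markers 1.73 and 0.41.

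Markers of T and NK cells had higher values in part of the HFD libraries. Of 9 tested, 4 had an unadjusted p under 0.05 with all libraries and 6 without HFD replicate 2, all higher, beside 3.92% and 4.22% of all genes, and none passed the adjusted test with edgeR in either fit. The median log2 fold change was 0.66, against 0.02 over all genes, and 0.73 without replicate 2. CD4, the coreceptor of helper T cells, was at 0.87, 10.2 and 16.5 CPM in HFD and at 0.37, 1.83 and 7.98 in LFD. Its log2 fold change was 1.55 (SE 0.56, edgeR adjusted p = 0.610) and 1.6 without replicate 2, and 6 of the 8 HFD libraries exceeded every LFD library. CD2, an adhesion receptor, CD5 and the kinase LCK had log2 fold changes of 0.77 (SE 0.28), 1.00 (SE 0.38) and 0.73 (SE 0.33), and of 0.80, 0.94 and 0.82 without replicate 2. The summed level of the list was 14.0, 29.96 and 63.0 in HFD and 12.5, 20.3 and 28.7 in LFD. HFD replicates 4, 5 and 6, with 58.3, 44.4 and 63.0, and replicate 1, with 31.3, were those above all LFD libraries.

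Macrophage and monocyte markers had a log2 fold change above 0 in 10 of 12 tested, beside 53.5% of all genes, with a median of 0.28. An unadjusted p under 0.05 was found for 2 of the 12, both with higher values in HFD, beside 3.92% of all genes. CSF1R, the receptor for their growth factor, and CD68, a lysosomal protein, had log2 fold changes of 0.51 (SE 0.24, edgeR adjusted p = 0.745) and 0.67 (SE 0.28, edgeR adjusted p = 0.655), which were 0.44 and 0.66 without HFD replicate 2. The summed level ran from 163 to 450 in HFD and from 88.5 to 370 in LFD, and the groups overlapped widely. In the interferon response, 15 of 16 tested genes had a log2 fold change above 0, beside 53.5% of all genes, and 3 had an unadjusted p under 0.05 with higher values, beside 3.92%. None of the macrophage or interferon genes passed the adjusted test.

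IRF7, a transcription factor of that response, was at 13.7, 29.6 and 56.6 CPM in HFD and at 8.09, 11.9 and 30.6 in LFD (log2 fold change 0.96, SE 0.34, edgeR adjusted p = 0.603, and 1.05 without replicate 2). OAS2, an antiviral enzyme, and CXCL10, a chemokine for T cells, had log2 fold changes of 0.80 (SE 0.30) and 0.85 (SE 0.40), and of 0.75 and 0.98 without replicate 2. For IRF7 and OAS2, all 8 HFD libraries lay above the LFD median.

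Adipocyte markers had a median log2 fold change of -0.09 over 9 genes, of which LEP and PCK1 had an unadjusted p under 0.05 in opposite directions. Over all genes, 3.92% were higher and 2.73% lower in HFD at that p, and 4.22% and 3.78% without HFD replicate 2. Among 9 endothelial markers, TIE1 and CDH5 had log2 fold changes of 0.32 (SE 0.14) and 0.35 (SE 0.16), which were 0.20 and 0.23 without HFD replicate 2, where neither had an unadjusted p under 0.05. ERG, an endothelial transcription factor, was the 1 marker of that list under 0.05 without it, with a lower value in HFD (log2 fold change -0.30, SE 0.12, edgeR adjusted p = 0.507, and -0.25 with all libraries). Among 10 markers of smooth muscle and pericytes the median was 0.02, or -0.10 with total count scaling, and MCAM and NOTCH3 were the 2 at an unadjusted p under 0.05, with 0.34 (SE 0.13) and 0.50 (SE 0.21). Without HFD replicate 2, which held the highest NOTCH3 value, these were 0.37 (SE 0.12) and 0.25 (SE 0.14). The contractile genes DES, CNN1 and ACTA2 of the same list had -0.81 (SE 0.58), -0.78 (SE 0.47) and -0.55 (SE 0.34) with all libraries. Of the 10 hepatocyte markers, 8 had an unadjusted p under 0.05 with all libraries, all higher, and 2 without HFD replicate 2, beside 3.92% and 4.22% of all genes. APOC3, an apolipoprotein of liver, shows this, with a log2 fold change of 1.72 (SE 0.75) that was 0.35 (SE 0.47) without that library, which held 77.0 CPM against at most 12.6 in any other. The part of liver RNA in it was not tested.

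MMP9 of the neutrophil list and CDH1 of the epithelial list were the single members of their lists at an unadjusted p under 0.05. They were 1 of 4 and 1 of 2 tested, beside 3.92% of all genes with higher values. Their log2 fold changes were 1.44 (SE 0.63) and 1.63 (SE 0.60), and 1.52 and 1.54 without HFD replicate 2. MMP9 stood at 10.5 and 17.7 CPM in HFD replicates 1 and 3 and at most at 4.14 elsewhere, and its log2 fold change was 0.68 without replicate 3 and 0.58 with DESeq2. B and plasma cell, erythroid, skeletal muscle and mesothelial markers had 0 members under an unadjusted p of 0.05. Only 4, 3, 2 and 1 of them were tested, in that order, so these lists say little about those cells. The mesothelial BNC1 and CALB2 were at 0 counts in all fat libraries. The immediate early and heat shock genes, which respond to handling of tissue, had 0 of 15 with a median of 0.12, or -0.04 with total count scaling, and the 13 mitochondrially encoded genes had 0 with a median of 0.07. Without HFD replicate 2 these medians were 0.05 and 0.23. The mitochondrial ND6 was then under 0.05 with a higher value in HFD (log2 fold change 0.77, SE 0.34, edgeR adjusted p = 0.58), beside 4.22% of all genes. CD36 and IGF2 had no identifier with that symbol, and FGL1, with 134 counts over all libraries, was too low to test.

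Whether the difference between HFD and LFD was other in fat than in liver was asked with an interaction term over the 32 libraries. The fit took these libraries as independent, since the labels do not pair liver and fat libraries of a pig. If the tissues came from the same pigs, the p-values of this test leave that pairing out. Of 14324 genes tested, 0 (0%) had an edgeR adjusted p under 0.05, 896 were under 0.05 before adjustment, and 0.114 was the lowest adjusted p. SDSL was among those with that lowest value, with an interaction of 1.78 on the log2 scale (SE 0.36) and a liver log2 fold change of 0.11 (SE 0.13). A2M had an interaction of 1.90 (SE 0.42, edgeR adjusted p = 0.190), GRB14 of -1.86 (SE 0.41, edgeR adjusted p = 0.190) and AMDHD1 of -1.66 (SE 0.38, edgeR adjusted p = 0.238), and their liver log2 fold changes lay between 0.04 and 0.07. RAP1GAP had an interaction of 1.90 (SE 0.54, edgeR adjusted p = 0.510). Without fat HFD replicate 2 there was 1 call, HAO1, a peroxisomal oxidase of liver. Its interaction was 2.39 (SE 0.43, edgeR adjusted p = 0.0498) and its liver log2 fold change -0.45 (SE 0.15). HAO1 was too low to test in fat alone, so its difference within fat was not assessed. DESeq2 called 40 genes for the interaction.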

How the data were processed

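RNA was prepared with a TruSeq kit, and the submitters' processing notes name FastQC, STAR, RSEM, DESeq2 and the build Sscrofa11.1, without roles or versions. The authors deposited whole-number counts per Ensembl gene, 1 column per fat library and 2 runs per liver library, which were summed. Of 31908 identifiers, 15029 had a symbol in RefSeq's table of that build, which also gave the positions. Genes too low by edgeR's filterByExpr were left out, counts were scaled by TMM, and HFD was compared with LFD in the 16 fat libraries with edgeR 4.0.16 (quasi-likelihood, robust, Benjamini-Hochberg adjusted p under 0.05) in R 4.3.3, after tests on simulated data. DESeq2 1.42.0 and limma 3.58.1 (voom) were alternatives, with other scalings, other filters and each library left out. Fat libraries held 9409976 to 19484621 counts. The most alike libraries of a group had a chi-square of 16.2 per gene, so none was a copy. Named genes were the 12 higher and 12 lower with the smallest p, genes past the threshold, members of pathway lists at an unadjusted p under 0.05 (up to 4 a list), reference genes of fat, and the genes that take most of HFD replicate 2. Cell type markers at that p, genes without overlap, list members at that p only without HFD replicate 2, other list members set beside them, and genes called by both other tools in every fit were named after their values were seen. The members and lists were chosen with earlier results of these data known. Some list members are not reported here and were left out of the list counts.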

Additional observations from a re-analysis of the deposited data

Results flagged for a closer look

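The values below lay farther from their own group of 8 than Dixon's test allows at the 5% level. Of 208 groups of 8 values examined, 40 held such a value, and 18 of the 40 were of HFD replicate 2 and 7 of LFD replicate 4. The groups of values share the same libraries. Some genes were examined because they take most of HFD replicate 2, and others for their small p. These counts therefore cannot be set against a rate expected by chance. No cause was tested.

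HFD replicate 2 was lowest in total counts (9409976), mean Spearman correlation (0.846), TMM factor (0.319, against 0.927 to 1.32 in the other HFD) and RAP1GAP (1.00 CPM). It was highest in the share of its top 10 genes (80.9%) and in the shares of 3 identifiers with no symbol, ENSSSCG00000041596 (45.2%), ENSSSCG00000041875 (19.3%, against 1.35% to 4.00%) and ENSSSCG00000047299 (7.18%, against 0.300% to 0.950%). It was also highest in A2M (46.99 CPM), APOC3 (77.0), TIE1 (102, against 49.6 to 65.2), NOTCH3 (159, against 34.2 to 80.4) and LIPE (2509, against 1249 to 1841). Its summed levels were highest for insulin signalling and glucose uptake (2536, against 1367 to 1750), extracellular matrix (51169), preadipocyte and fibroblast markers (25176, against 11490 to 15501), skeletal muscle markers (26.3) and hepatocyte markers (1778).

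In LFD replicate 4, the share of the top 10 genes (42.2%) and that of ENSSSCG00000047299 (14.2%, against 0.342% to 0.586% in the other LFD) were highest and the TMM factor (0.760) lowest. SAL1 (381 CPM, against 14.7 to 141), CNTN1 (13.6, against 3.07 to 5.01) and STAT5A (117, against 71.4 to 83.8) were highest and PLEK (2.12) lowest there.

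Other HFD libraries held single high values, FBXL2 in replicate 3 (12.7), MME and ABHD5 in replicate 7 (13.1 and 101), OAS2 and the summed macrophage and monocyte markers in replicate 6 (83.8 and 450), and the summed skin and epithelium markers in replicate 8 (17.4). Among the LFD libraries, replicate 3 was high in CCDC9B (26.0), TBXA2R (22.6) and PPARG (221.3), replicate 2 in MMP9 (4.14) and replicate 7 in APOC3 (9.68). The summed markers of smooth muscle and pericytes (802) and of skin and epithelium (8.40) were high in LFD replicate 6, those of erythroid cells (344) in replicate 5 and those of Schwann cells and nerve (83.1) in replicate 8.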

How the results depend on the processing

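The count of genes called between HFD and LFD fat was 0 with edgeR on all 16 libraries, also without the robust option, with DESeq2 size factors, upper quartile or total count scaling, either other filter, and without the over-represented genes. It was 1 with limma-voom, with and without HFD replicate 2, 39 and 30 with limma-voom and library weights with all libraries and without HFD replicate 2, and 50 and 85 with DESeq2 in the same order. It was 1 when HFD replicate 2 and LFD replicate 4 were both left out. The weights without HFD replicate 2, and leaving out both libraries, were chosen after seeing the data. With each of the 16 libraries left out in turn it ranged from 0 to 2, with 1 without HFD replicate 2 (RAP1GAP) and 2 without LFD replicate 3 (RAP1GAP and TBXA2R). At an unadjusted p under 0.05, against 870 genes with all libraries, there were 1366 when HFD replicate 3 was left out, the most, and 672 when LFD replicate 4 was, the fewest. Total count scaling gave 357 such genes.

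Same-numbered HFD and LFD libraries deviated from their group means with correlations of 0.0508 to 0.302, above 0.1 in 6 of 8 pairs. The mean was 0.165 against -0.0241 for other pairs, and 3 of 16 libraries correlated best with their own number. The labels do not say that a number pairs animals, so the main fit had no replicate block. The fit with the replicate block called 0 genes with all libraries (913 at an unadjusted p under 0.05) and 1, A2M, without HFD replicate 2 (adjusted p = 0.0320), where RAP1GAP had an adjusted p of 0.0642 and was not called. The interaction with tissue had 1 call without fat HFD replicate 2 and 40 with DESeq2, in which 2050 genes kept an adjusted p.

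Signs of log2 fold changes near 0 turned for 3 reference genes and for APOC3. PPARG, -0.05 with all libraries, was between -0.115 and 0.0331 with single libraries left out, and without HFD replicate 2 it was 0.0381 with DESeq2, 0.0352 with limma-voom, 0.0233 with the block and 0.00674 with library weights, and 0.0139 without LFD replicate 4 as well. DGAT2, 0.05, was -0.0371 with total count scaling and -0.0748 to 0.182 with single libraries left out. LIPE, 0.05, was -0.0509 with library weights, -0.157 with total count scaling, and without HFD replicate 2 -0.0527 with DESeq2, -0.0308 with limma-voom, -0.00213 with the block, -0.0751 with library weights and -0.0614 without LFD replicate 4 as well, and it ran from -0.0587 to 0.110 with single libraries left out. APOC3, 1.72, was -0.21 with library weights and -0.25 with them and without HFD replicate 2. The cause was not tested. Counts of 9409976 to 19484621 per library leave genes below about 1 CPM, such as GRB14 in HFD, on few reads.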
